A study of Mus musculus with 7 samples.

Results

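The miRNAs described here are miR-223-3p, known from myeloid cells, miR-451a, miR-144-3p and miR-486-5p, known from red blood cell precursors, and miR-122-5p, known from hepatocytes. They were read as signs of RNA from other cells in sorted mouse CD4 T cells. A probe belonged to the set when bases 2 to 8 of its target, the seed by which a miRNA recognises messenger RNAs, equalled the seed of 1 of these 5 miRNAs, and 8 of the 1874 probes on the array did. The arrays carried 2 probes with the miR-223-3p seed, 2 with the miR-451a seed, 1 with the miR-144-3p seed, 1 with the miR-486-5p seed and 2 with the miR-122-5p seed.

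The study measured small RNA, on 7 Agilent arrays, in CD4 T cells with the DO11.10 receptor for a peptide of ovalbumin. The sOVA host group (3 arrays) and the WT host group (2 arrays) were CD44 high cells, sorted 5 days after donor cells of DO11 Rag2-/- mice had been injected into sOVA mice or WT Balb/c mice. Both kinds of host were given, 24 h after the transfer, dendritic cells grown from bone marrow, activated beforehand by LPS and carrying Ova peptide. The naive group (2 arrays) was CD25- CD44 low cells of DO11.10 Rag2+/+ mice, which received no transfer. All groups were of the Balb/c strain, aged 6 to 8 weeks, and were sorted by flow cytometry from pooled spleens and lymph nodes. The sample titles name an OVA immunized host and an sOVA immunized sOVA host, so host and immunization cannot be told apart, nor can activation, donor Rag2 genotype and sort. Whether replicates came from separate pools of mice is not in the labels, and the p-values cover the spread of these samples alone, which may be technical.

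miR-223 is transcribed in cells of the granulocyte and monocyte lineage, where it restrains neutrophil maturation and activation. miR-144 and miR-451a come from 1 transcript that the erythroid factor GATA1 switches on, and miR-451a is cut by AGO2 rather than by Dicer. miR-486-5p accumulates in red blood cells and in muscle, while miR-122-5p dominates the miRNA pool of hepatocytes and acts there on lipid metabolism. Red blood cells and platelets carry much of the miR-451a, miR-486-5p and miR-223-3p of blood, so these miRNAs are common indicators of blood cells in a preparation.

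The mature sequences that the RefSeq table of GRCm38.p6 holds for these miRNAs are shown because the seed, in capitals, chose the probes and separates the families. They are written 5′ to 3′.
miR-223-3p: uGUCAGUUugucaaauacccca
miR-451a: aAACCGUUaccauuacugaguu
miR-144-3p: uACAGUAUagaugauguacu
The 3 seeds differ from one another, so no probe of the set belonged to more than 1 of these families. The Mir223 hairpin lies at chrX:96242817-96242926 on the plus strand. The Mir144 hairpin at chr11:78073005-78073070 and the Mir451a hairpin at chr11:78073170-78073241 lie on the same strand, with 99 bases between them. For miR-223-3p the 22-base target of UC1005308 was the whole mature sequence and the 21-base target of UC1005307 ended 1 base earlier. For miR-451a the 22-base target of UC1005648 was the whole mature sequence and the 23-base target of UC1005649 ran 1 base further. The 20-base target of UC1005112 was the whole of miR-144-3p. The names of UC1005728 (miR-486-5p) and of UC1005017 and UC1005018 (miR-122-5p) rest on the seed. The RefSeq table held no entry for these miRNAs. Their seeds were read from probes recognised by the textbook seed, and no reference sequence was compared.

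Levels are given as log2 of the background-subtracted intensity relative to the array's 75th percentile, taken over the 253 probes detected on all 7 arrays. A probe was counted as detected on an array when at least 50% of its 7 spots were well above background. Of the 1874 probes, 309 to 467 were detected per array. The alternative scalings over all probes therefore rest on undetected probes (median) or on probes at or below the border of detection (75th percentile). The 75th percentile of intensity was 9860, 11114 and 2729 in the sOVA host, 9281 and 3591 in the WT host, and 11868 and 15743 in naive cells. sOVA host replicate 3 and WT host replicate 2 were thus the dimmest, and log2 differences between replicates had an SD of 1.30 and 1.53 in the pairs with sOVA host replicate 3, against 0.60 to 0.77 in the other pairs. Of the 8 probes, 4, 4 and 6 were detected in the sOVA host, 6 and 4 in the WT host, and 5 on each naive array. All 6 measured miRNAs of a T cell and lymphoid list, miR-142a-3p, miR-142a-5p, miR-146a-5p, miR-155-5p, miR-181a-5p and miR-342-3p, were detected on all 7 arrays. miR-150-5p, also on that list, was not looked up, as the RefSeq table held no entry for it. In these bulk samples, fewer cells of a type and less of a miRNA per cell cannot be told apart.

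The myeloid miRNA miR-223-3p was lower in activated than in naive cells. The level of UC1005308 was -6.60, -5.22 and -4.99 in the sOVA host, -5.59 and -6.34 in the WT host, and -3.04 and -2.80 in naive cells. Every activated array lay below both naive arrays, and within the activated arrays the hosts overlapped. Before scaling the intensity was 101, 297 and 86.1 in the sOVA host, 193 and 44.4 in the WT host, and 1438 and 2257 in naive cells, and these too did not overlap between activated and naive arrays. The probe was detected on sOVA host replicates 2 and 3, on WT host replicate 1 and on both naive arrays.

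The mean level was -5.60 ± 0.87 (SD, n = 3) in the sOVA host and -2.92 ± 0.17 (SD, n = 2) in naive cells, a log2 change of -2.68 ± 0.54 (SE; 95% interval -4.00 to -1.36; adjusted p = 0.0221, limma). In the WT host the mean was -5.96 ± 0.53 (SD, n = 2), against the same naive arrays, a log2 change of -3.04 ± 0.60 (SE; 95% interval -4.49 to -1.59; adjusted p = 0.0161, limma). Both comparisons share the naive arrays. UC1005308 was tested because it was detected on both naive arrays, and with no filter on dim probes neither change was called (adjusted p = 0.0756 in the sOVA host and 0.126 in the WT host, limma). The fitted folds, 6.41-fold lower in the sOVA host and 8.22-fold lower in the WT host, include sOVA host replicate 1 and WT host replicate 2, where the probe was not above background, and are approximate. Within slide row 1 the change was -2.87 for the sOVA host and -2.54 for the WT host, and within row 2 it was -2.18 and -3.54 in the same order of hosts. The call for the sOVA host was lost without naive replicate 1 (-2.85, adjusted p = 0.164, limma) or naive replicate 2 (-2.56, adjusted p = 0.156, limma). The call for the WT host was lost without naive replicate 1 (adjusted p = 0.126), naive replicate 2 (adjusted p = 0.101), WT host replicate 1 (adjusted p = 0.0655) or WT host replicate 2 (adjusted p = 0.111, limma for each), with changes of -3.41 to -2.67.

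The shorter probe for the same miRNA, UC1005307, ranked the arrays on which both probes were detected in the same order. Its level was -7.89, -6.90 and -5.87 in the sOVA host, -7.31 and -7.18 in the WT host, and -4.47 and -4.35 in naive cells. It was detected on sOVA host replicate 2, WT host replicate 1 and both naive arrays, and again no activated array reached a naive one. The other arm of the hairpin, miR-223-5p (UC1005309), was detected on no array.

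The erythroid miRNA miR-451a was detected on all 7 arrays, and its arrays lay further apart within the sOVA host than the group means did. The level of UC1005649 was -1.09, -4.12 and 0.94 in the sOVA host, -3.33 and -1.80 in the WT host, and -0.97 and -1.84 in naive cells. The sOVA host held both the highest and the lowest array, 33.3-fold apart, while the WT host arrays were 2.88-fold apart and the naive arrays 1.83-fold. The second probe, UC1005648, had -1.69, -4.75 and 0.34 in the sOVA host, -4.00 and -2.40 in the WT host, and -1.53 and -2.49 in naive cells. It put the 7 arrays in the same order. The 7 spots of UC1005649 on 1 array, which are technical repeats, had an SD of 0.05 to 0.11.

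In the tests, miR-451a had a log2 change of -0.02 ± 1.41 (SE; 95% interval -3.46 to 3.42; adjusted p = 0.993, limma) in the sOVA host and of -1.16 ± 1.55 (SE; 95% interval -4.92 to 2.61; adjusted p = 0.599, limma) in the WT host, each against naive cells. The intervals allow changes of about 3 log2 units either way in the sOVA host, so these data do not show that the level was alike. Within slide row 1 the change in the sOVA host was -1.64, and within row 2, where sOVA host replicate 3 lay, it was 2.78. In the WT host it was -2.36 within row 1 and 0.04 within row 2.

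miR-144-3p, which shares its transcript with miR-451a, was not detected. None of the 7 spots of UC1005112 was well above background on any of the 7 arrays, including sOVA host replicate 3, where miR-451a was highest. A longer probe containing the same sequence with another start, UC1005111, and the probe for the other arm, miR-144-5p (UC1005113), were also detected on no array. The levels of different probes cannot be set against each other, so this does not say how much less miR-144-3p there was than miR-451a.

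miR-486-5p was dim and was detected on 3 arrays. The level of UC1005728 was -6.00, -9.06 and -3.53 in the sOVA host, -8.05 and -6.64 in the WT host, and -6.61 and -7.20 in naive cells. All 7 spots were well above background on sOVA host replicate 3 and on both naive arrays, 1 spot was on sOVA host replicate 1, and none was on the other arrays. sOVA host replicate 3 was at least 11.3-fold above sOVA host replicate 2, where the detection limit sets the bound. The log2 change was 0.71 ± 1.51 (SE; adjusted p = 0.738, limma) in the sOVA host and -0.44 ± 1.65 (SE; adjusted p = 0.835, limma) in the WT host, each against naive cells. The probe was tested because it was detected on both naive arrays. It was detected on 1 of 3 sOVA host arrays and on neither WT host array, so both changes rest on values below background. The first of these was -0.11 when arrays were scaled to the 75th percentile over all probes and -0.91 when scaled to the median over all probes. Without sOVA host replicate 3 it was -0.64.

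The liver miRNA miR-122-5p was detected on 4 of the 5 activated arrays and on neither naive array. The level of UC1005017 was -1.64, -9.05 and 0.50 in the sOVA host, -6.45 and -3.26 in the WT host, and -9.29 and -10.59 in naive cells. sOVA host replicate 2 was the activated array without detection. The 4 arrays with detection lay above both naive arrays. On the naive arrays all 7 spots held the surrogate value that Feature Extraction sets for spots at background, so the naive levels, like that of sOVA host replicate 2, are limits with no order among them. The intensity before scaling was 3164, 21.0 and 3862 in the sOVA host, 106 and 375 in the WT host, and 18.9 and 10.2 in naive cells.

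Within the sOVA host, replicate 3 was at least 184-fold above replicate 2 by the detection limit, and within the WT host, replicate 2 was 9.15-fold above replicate 1. The second probe, UC1005018, had -1.87, -9.36 and 0.30 in the sOVA host, -6.66 and -3.47 in the WT host, and -9.29 and -10.59 in naive cells, and was detected on the same 4 arrays in the same order.

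Against naive cells the fitted log2 change of miR-122-5p was 6.55 ± 2.76 in the sOVA host (SE, 95% interval -0.16 to 13.25, adjusted p = 0.124, limma). The sOVA host mean was 18.6-fold above the naive detection limits, but it includes the undetected replicate 2, so this is no strict lower bound. In the WT host, where both arrays had detection, miR-122-5p was at least 6.77-fold higher (fitted log2 change 5.08 ± 3.02 SE, 95% interval -2.26 to 12.43, adjusted p = 0.261, limma). Neither passed the threshold of 0.05. The feature was tested because it was detected on both WT host arrays. With no filter on dim probes neither change was called either (adjusted p = 0.0756 in the sOVA host and 0.313 in the WT host, limma). For the sOVA host the change passed without sOVA host replicate 2 (9.37, adjusted p = 0.0156, limma), when scaled to the 75th percentile over all probes (5.73, adjusted p = 0.0272, limma) and when scaled to the median over all probes (4.93, adjusted p = 5.28e-05, limma). Both of these scalings set arrays by probes at or below the border of detection. With median scaling the 4 features tested had the same SE (0.97 in the sOVA host). That p-value therefore does not measure the spread of miR-122-5p itself. The change in the sOVA host was 4.58 when replicate 3 was left out (adjusted p = 0.176, limma), and without both dim arrays it was also 4.58 (adjusted p = 0.231, limma). For the WT host it passed with median scaling (4.03, adjusted p = 0.00461, limma), where the 4 features again had the same SE (1.07), and when only the arrays of both groups compared were fitted (5.08, adjusted p = 0.0301, limma). It was 3.49 without WT host replicate 2 (adjusted p = 0.662, limma) and 6.68 without WT host replicate 1 (adjusted p = 0.305, limma). Within slide row 1 the change was 3.95 in the sOVA host and 2.84 in the WT host, and within row 2 it was 11.09 and 7.33 in the same order of hosts. These are differences from the surrogate values of the naive arrays, which themselves differ between the rows, and the first also includes the undetected sOVA host replicate 2. Row 2 held sOVA host replicate 3 and WT host replicate 2, the dimmest arrays.

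Of the 4 features tested, 1 was called in the sOVA host against naive cells, miR-223-3p, downward. In that comparison 21.1% of the 342 features tested were called, 15.5% higher and 5.56% lower, and 43% had an unadjusted p under 0.05. In the WT host against naive cells the same 1 of 4 was called, where 18.7% of all features were, 12.9% higher and 5.85% lower, and 36.8% had an unadjusted p under 0.05. The groups of miR-223-3p did not overlap in the sOVA host against naive cells, as was the case for 61.7% of all features, nor in the WT host against naive cells, as for 75.7%. Those of miR-122-5p did not overlap in the WT host, while in the sOVA host the separation could not be measured, since sOVA host replicate 2 and the naive arrays were all below detection. The median log2 change of the 4 was 0.35 in the sOVA host, against 0.11 over all features, and -0.80 in the WT host, against 0.27 over all features. Scaling to the 75th percentile over all probes moved the medians over all features to -0.70 in the sOVA host and -0.24 in the WT host. The calls over all features then split into 24 higher and 44 lower in the sOVA host, against 53 and 19 in the main scaling, and into 19 and 20 in the WT host, against 44 and 20. miR-223-3p fell and was called with that scaling too, which rests on probes at or below the border of detection.

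Between the hosts none of the 4 features was called, and none had groups without overlap. No feature of the 342 was called in this comparison (0%) by limma, while 12% had an unadjusted p under 0.05 and 23.4% had groups without overlap. The log2 change in the sOVA host against the WT host was 1.46 (95% interval -5.24 to 8.17, adjusted p = 0.865, limma) for miR-122-5p and 1.14 (95% interval -2.30 to 4.58, adjusted p = 0.811, limma) for miR-451a. It was 1.15 (95% interval -2.51 to 4.82, adjusted p = 0.812, limma) for miR-486-5p, which was above background on neither WT host array, and 0.36 (95% interval -0.96 to 1.68, adjusted p = 0.852, limma) for miR-223-3p. Without sOVA host replicate 3 the changes of miR-122-5p, miR-451a and miR-486-5p were -0.49, -0.05 and -0.18. That of miR-223-3p was -0.21 with median scaling. As the direction changed with the setting, the sOVA host and the WT host could not be ranked by mean for any of the 4. For miR-451a and miR-486-5p the same held for all neighbouring groups in the order of means. For miR-122-5p this gives no rank against naive cells, since neither change was called in the main test.

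The spread between replicates set 3 of the 4 features apart from most of the array. The residual SD within groups was 3.75 for miR-122-5p, the highest of the 342 features, 2.03 for miR-486-5p, the third highest, and 1.90 for miR-451a, the fifth highest, against a median of 0.50. miR-223-3p, at 0.68, ranked 121st. Among the 214 features detected on all 7 arrays, miR-451a ranked 2nd, behind UC1006085 (miR-705), and their median was 0.48. Within the sOVA host the range was 9.55 log2 units for miR-122-5p, 5.53 for miR-486-5p and 5.06 for miR-451a, against a median of 1.09 over all features. For miR-122-5p and miR-486-5p the lower end of that range lay below detection. These ranks are a description with no test.

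The values of miR-451a, miR-486-5p and miR-122-5p put the 5 activated arrays in 1 order, although not all of these values were above background. For UC1005649 and UC1005648 (miR-451a), UC1005728 (miR-486-5p) and UC1005017 and UC1005018 (miR-122-5p) the order was sOVA host replicate 3, sOVA host replicate 1, WT host replicate 2, WT host replicate 1 and sOVA host replicate 2, with the highest first. The intensities before scaling gave the same order. miR-451a was detected on all 5 of these arrays and miR-122-5p on all but sOVA host replicate 2, its last. miR-486-5p was detected on sOVA host replicate 3 alone, so the order of its other values lies below background. Of the 342 tested features 7 had this order, or 2.05%, among them UC1006085 (miR-705) and miR-214-3p, which are outside the set. Before scaling 4 had it, and both counts include miR-451a, miR-486-5p and miR-122-5p. With normexp background correction miR-486-5p had WT host replicate 2 above sOVA host replicate 1, and with quantile normalization all 3 kept the order. The highest and the third array in it were the dimmest arrays, and the part of brightness in the order was not tested. The values of miR-223-3p had another order, with sOVA host replicate 3 first in the main scaling and with normexp. Before scaling, with the 75th percentile over all probes and with quantile normalization, sOVA host replicate 2 was first. miR-223-3p was not detected on sOVA host replicate 1 or WT host replicate 2.

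The naive arrays parted these miRNAs. miR-451a and miR-486-5p were detected on both naive arrays, whereas miR-122-5p was detected on neither. The naive levels of miR-451a lay between those of sOVA host replicates 2 and 3. The Pearson correlation of levels over the 7 arrays, given as a description of points that share the scaling of each array and include values below background, was 0.97 between miR-451a and miR-486-5p. It was 0.61 between miR-122-5p and miR-451a, 0.75 between miR-122-5p and miR-486-5p, and -0.69 between miR-122-5p and miR-223-3p.

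Among all other tested features, the 3 most like each member by the same correlation were named. For miR-122-5p they were UC1006085 (miR-705, r = 0.95), UC1006410 (r = 0.92) and UC1004653 (r = 0.92). UC1006085 had levels of -1.22, -4.35 and 0.79 in the sOVA host, -3.69 and -2.09 in the WT host, and -5.53 and -4.22 in naive cells, and was detected on all of them. For miR-451a they were miR-486-5p, miR-339-5p (UC1005502, r = 0.93) and UC1005145 (r = 0.91). For miR-486-5p they were miR-451a, miR-339-5p (r = 0.97) and miR-214-3p (UC1005271, r = 0.90). UC1005502 had -4.70, -6.63 and -2.85 in the sOVA host, -6.64 and -4.92 in the WT host, and -5.49 and -5.89 in naive cells. For miR-223-3p they were UC1005250 (r = 0.92), miR-92b-3p (UC1004983, r = 0.91) and miR-322-5p (UC1005463, r = 0.91). miR-92b-3p was detected on all 7 arrays and was higher on both naive arrays than on any activated array, and UC1005250 was detected on the naive arrays alone.

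Other markers of the same and of other tissues were read from marker lists, by summed level in multiples of the array's 75th percentile. Apart from members, listed names without an entry in the RefSeq table were not looked up. Among these were miR-486-3p of the erythroid list and miR-122-3p of the liver list. The erythroid, liver and myeloid lists include the members described above. Their sums therefore repeat those levels in part, undetected features included, and are no separate sign of other cells. The erythroid list had 5 features, of which miR-451a and miR-486-5p were detected on some array, and its sum was 0.495, 0.064 and 2.02 in the sOVA host, 0.108 and 0.306 in the WT host, and 0.529 and 0.290 in naive cells. The liver list had 4 features, and its sum was 0.384, 0.0521 and 1.47 in the sOVA host, 0.0807 and 0.150 in the WT host, and 0.0675 and 0.0758 in naive cells. The myeloid list, the arms of miR-223, ran from 0.0139 to 0.0372 in the sOVA host and from 0.0154 to 0.0223 in the WT host, against 0.123 to 0.144 in naive cells. Its lower ends, on sOVA host replicate 1 and WT host replicate 2, rest on values below background, as neither arm was detected there.

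The values of miR-192-5p and miR-194-5p, which are abundant in liver and in gut epithelium, did not follow the order of miR-122-5p, although not all were above background. miR-192-5p (UC1005197) had -5.63, -6.39 and -5.63 in the sOVA host, -5.57 and -6.37 in the WT host, and -5.71 and -5.62 in naive cells. miR-194-5p (UC1005210) had -4.67, -4.77 and -5.20 in the sOVA host, -4.42 and -5.05 in the WT host, and -4.47 and -4.21 in naive cells. They were detected on 5 and 7 arrays. miR-192-5p was not detected on sOVA host replicate 3 or WT host replicate 2, so its values there are limits. On sOVA host replicate 3 miR-194-5p lay at the lowest detected level of that array (-5.20). With these values included, both stayed within 1 log2 unit over the 7 arrays. Neither was called (adjusted p = 0.680 and 0.244 in the sOVA host, and 0.599 and 0.433 in the WT host, against naive cells, limma). miR-802-5p, another miRNA of hepatocytes, was detected on no array.

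Among markers of further tissues, the probes for muscle (miR-206-3p, miR-208a-3p and miR-499-5p) and pancreas (miR-216a-5p and miR-217-5p) were detected on no array. Listed but not looked up, for want of an entry in the RefSeq table, were miR-1a-3p and miR-133a-3p of muscle and miR-375-3p of pancreas. The same held for miR-126-5p of endothelium and for miR-143-3p and miR-145a-5p of the stromal list. These lists therefore do not show that such RNA was absent. miR-126-3p, of endothelium and platelets, was detected on naive replicate 2 alone. Of the stromal list miR-214-3p was detected on 6 arrays, with -5.47, -7.08 and -3.43 in the sOVA host, -6.32 and -5.50 in the WT host, and -6.86 and -6.01 in naive cells, and miR-199a-3p and miR-199a-5p on none. Neither comparison with naive cells called miR-214-3p (adjusted p = 0.439 in the sOVA host and 0.738 in the WT host, limma).

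The summed T cell and lymphoid list was 13.6, 12.01 and 4.21 in the sOVA host, 7.34 and 5.57 in the WT host, and 12.1 and 10.56 in naive cells. sOVA host replicate 3 had the lowest sum, and sOVA host replicate 1, the next highest activated array for miR-451a and miR-122-5p, had the highest. The sum adds different probes, among them miR-146a-5p and miR-155-5p, at 1.70 and 1.39 on sOVA host replicate 1. On naive replicate 1 they were at -2.54 and -3.19. The sum is therefore no measure of T cell content. Of the 6 miRNAs of the list 2 rose in the sOVA host, miR-146a-5p and miR-155-5p, which are induced by T cell activation, where 15.5% of all features were called higher. Both calls were lost without naive replicate 1 (adjusted p = 0.108 and 0.164, limma) or naive replicate 2 (adjusted p = 0.137 and 0.141, limma), and that of miR-155-5p also without sOVA host replicate 1 (adjusted p = 0.057, limma). In the WT host 1 fell, miR-181a-5p, which tunes the sensitivity of the T cell receptor, where 5.85% of all features were called lower. It was not called without naive replicate 1 or 2 or WT host replicate 1 or 2 (adjusted p = 0.073 to 0.126, limma). The part of other cells in any change of the 4 features was not tested.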

How the data were processed

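Small RNA of 7 samples was hybridised to 1-colour Agilent arrays, labelled with Cy3 per the labels' protocols. The deposited scanner files hold spot intensity, already background-subtracted and detrended; per the file headers no scaling between arrays was applied. The headers name Feature Extraction 9.5.1.1, and the submitters' processing notes 10.6. The deposited value table holds log2 values whose normalization is not given in the sources used here. It holds no probe of the set by identifier and served for counts of unnamed rows.

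Each array had 13935 spots, 16.5% to 25.4% of the 13118 probe spots were well above background, and none was saturated. Precision is limited by how few arrays there are. A single slide held them all, scanned at 1 time. Row 1 held 4 arrays (naive, WT host and sOVA host replicate 1, and sOVA host replicate 2) and row 2 the other 3.

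Control and outlier-flagged spots were left out, and spots were averaged as log2. Targets that share their start were merged (1753 features, each represented by its brightest probe). Those detected on each array of some group (342) were tested with limma 3.58.1 (R 4.3.3; lmFit, eBayes, group means, all 7 arrays; Benjamini-Hochberg, threshold 0.05). The script was checked on simulated data. miR-122-5p, miR-486-5p, miR-451a and miR-223-3p were tested, and miR-144-3p was not. "At least" folds set the bright group's mean, or array, against the higher of the lowest detected level and the dim probe's own. Alternatives concerned scaling, background correction, filter, merging, blocks, weights and arrays left out. Members, lists and alternatives were chosen with earlier results of these data known. All members were named. Of the marker lists, tested features were named, as were the 3 tested features most correlated with each tested member.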

Additional observations from a re-analysis of the deposited data

How the results depend on the processing

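Each group had 2 or 3 arrays, and dim probes have limits in place of levels. Of 216 single changes recomputed, 180 kept their direction and side of the threshold, 8 lost the call (all of miR-223-3p), 5 gained it (all of miR-122-5p) and 23 changed sign, none of them called in the main test. Why a setting moved a result was not tested.

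Features called in the sOVA host against naive cells (72) were 25 with no filter, where miR-223-3p had an adjusted p of 0.0756 (limma), 34 over features detected on all arrays, 125 with slide row as a block, 181 with array weights, 155 without both dim arrays (sOVA host replicate 3 and WT host replicate 2), 213 in the deposited value table, and 9 to 130 with 1 array left out (9 and 13 when naive replicate 1 or 2 was left out, 130 when sOVA host replicate 3 was). Those in the WT host against naive cells (64) were 39 with the 75th percentile over all probes, 31 with the median, 41 with normexp, 16 with no filter (miR-223-3p adjusted p = 0.126, limma), 25 over features detected on all arrays, 109 with slide row, 159 with weights, 117 without both dim arrays, 136 with only the groups compared, 225 in the value table, and 12 to 156 with 1 array left out (12 and 18 without naive replicates 1 and 2, 25 and 21 without WT host replicates 1 and 2, 156 without sOVA host replicate 3). Between the hosts (0) they were 47 with weights, 45 without both dim arrays, 126 in the value table and 0 to 65 with 1 array left out (65 without sOVA host replicate 3). Median scaling split the calls into 10 higher and 87 lower in the sOVA host and 9 and 22 in the WT host, and quantile normalization into 34 and 28, and 32 and 20. With median scaling the 4 tested features of the set had the same SE within each comparison. Normexp gave 46 and 11 in the sOVA host and 32 and 9 in the WT host.

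Of the 4 features, the 1 called in the sOVA host became 2 with either scaling over all probes, 0 with no filter, 0 over features detected on all arrays (where miR-223-3p was not tested), and 0 to 2 with 1 array left out. The 1 called in the WT host became 2 with median scaling or only the groups compared, 0 with no filter or over features detected on all arrays, and 0 to 1 with 1 array left out.

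In the sOVA host against naive cells the change of miR-451a was 0.0039 with normexp, 0.25 with slide row, 0.38 without naive replicate 1, and -1.21 to 1.33 with 1 array left out, the highest without sOVA host replicate 2. That of miR-486-5p was -0.11 and -0.91 with the 75th percentile and the median over all probes, -0.43 with weights, -0.64 without both dim arrays, and -0.64 to 2.14 with 1 array left out, the lowest without sOVA host replicate 3. In the WT host miR-486-5p was at 0.34 with normexp and at -1.15 to 0.26 with 1 array left out, the highest without WT host replicate 1. Between the hosts miR-122-5p was at -0.13 with weights, -0.14 without WT host replicate 1, and -0.49 to 4.29 with 1 array left out. miR-223-3p was at -0.21 with the median, -0.34 without both dim arrays, and -0.015 to 0.84 with 1 array left out, the lowest without WT host replicate 2. With 1 array left out miR-451a was at -0.045 to 2.49 and miR-486-5p at -0.18 to 2.59, and for these and miR-122-5p the lowest value came without sOVA host replicate 3 and the highest without sOVA host replicate 2.

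Deviations of samples with the same replicate number correlated at -0.60 to 0.35, and those of the 2-array groups mirror each other, so the pairs are not independent. Not every pair was above 0.1, and the numbers were not taken as a pairing. With the replicate block 104 features were called in the sOVA host, 139 in the WT host and 27 between the hosts. In that block the change of miR-486-5p was -0.62 in the sOVA host against naive cells, and between the hosts those of miR-122-5p, miR-451a and miR-486-5p were -0.49, -0.043 and -0.18. That of miR-122-5p in the sOVA host against naive cells was 4.60 (adjusted p = 0.239, limma). The block changed no call of the 4 features.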

Other observations

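miR-205-5p (UC1005255), a miRNA of stratified epithelium such as skin, was detected on sOVA host replicates 1 and 2 and on no other array. Its level was -4.87, -4.08 and -6.49 in the sOVA host, -9.39 and -8.39 in the WT host, and -9.29 and -10.59 in naive cells. It was not tested, as no group had it on every array, and sOVA host replicate 2, its highest array, was the activated array on which miR-122-5p was not detected. miR-200a-3p (UC1005229), of the epithelial miR-200 family, was detected on both naive arrays and on no activated array. It was at -7.60, -8.01 and -7.51 in the sOVA host, -8.61 and -8.43 in the WT host, and -6.04 and -6.32 in naive cells (adjusted p = 0.0165 in the sOVA host and 0.00403 in the WT host, limma), and the activated levels are limits rather than measurements. The lowest detected levels of sOVA host replicate 3 (-5.20) and replicate 1 (-5.82) lay above both naive values, so the size of a fall could not be measured there. Both calls were lost without naive replicate 1 (adjusted p = 0.184 and 0.0754, limma), and that in the sOVA host also without naive replicate 2 (adjusted p = 0.115, limma). Of the 5 tested epithelial features, 1 was called lower in the sOVA host (miR-200a-3p), where 5.56% of all features were, and 2 in the WT host (miR-200a-3p and miR-200b-3p, UC1005231), where 5.85% were. Both were tested because they were detected on the naive arrays, and neither was detected on an activated array. The naive levels of miR-200b-3p (-6.95 and -7.04) lay below the lowest detected levels of WT host replicate 2 (-6.11) and sOVA host replicates 1 and 3. The size of a fall could not be measured there. The level of miR-200a-3p on naive replicate 2 also lay below that of WT host replicate 2. miR-200b-3p was not called without naive replicate 1 or 2 or WT host replicate 1 or 2 (adjusted p = 0.0741 to 0.194, limma). The other tested epithelial features were not called in either host. miR-200c-3p (UC1005236) and miR-141-3p (UC1005099), also of the miR-200 family, were each detected on 5 arrays, activated ones among them. Against naive cells miR-200c-3p changed by 0.19 in the sOVA host and -0.12 in the WT host, and miR-141-3p by -0.91 and -0.94. miR-203-3p, detected on 4 arrays, changed by -1.51 and -1.30.

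miR-128-3p (UC1005042), listed as neural and detected on all 7 arrays, was at -3.77, -3.48 and -3.97 in the sOVA host, -3.34 and -3.68 in the WT host, and -2.95 and -2.84 in naive cells, with no call (adjusted p = 0.0706 and 0.191 in the sOVA and WT host, limma). miR-9-5p, on the same list, was detected on no array, and miR-124-3p, also listed, was not looked up for want of a RefSeq entry.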
